A study of Mus musculus with 10 samples.

Results

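Collagen crosslinking and hydroxylation enzymes were followed as 10 genes of the 56748 in the deposited counts table, taken by gene symbol: the lysyl oxidases Lox, Loxl1, Loxl2, Loxl3 and Loxl4, the lysyl hydroxylases Plod1, Plod2 and Plod3, and the prolyl 4-hydroxylase alpha subunits P4ha1 and P4ha2. All 10 were found, and all 10 were among the 14270 genes with enough counts to be tested. RNA-seq had been done on primary adipocytes, grown from the stromal vascular fraction of inguinal fat and brought to differentiate over 6 to 8 days; the donors were male mice, aged 6 to 8 weeks. The control group (Control, 5 libraries) carried the floxed Fam20c allele alone, and the KO group (KO, 5 libraries) carried the same floxed allele together with Adipoq-Cre. Both groups therefore share the floxed allele and controls lack the recombinase, which the adiponectin promoter turns on in adipocytes and not in the endothelial cells, progenitors or macrophages that such a culture can also hold. No label states that the 5 cultures of a group came from separate animals. Adjusted p-values therefore weigh group differences against the spread between these libraries, which may be in part technical.

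Collagen is built from glycine- and proline-rich chains whose prolines and lysines are modified before and after they leave the cell. In the endoplasmic reticulum, prolyl 4-hydroxylases (a P4HA alpha subunit paired with P4HB) hydroxylate proline, which makes the triple helix stable at body temperature, and lysyl hydroxylases (the PLOD proteins) hydroxylate lysine; both need iron, oxoglutarate and ascorbate. Outside the cell, the copper enzymes of the lysyl oxidase family turn lysine and hydroxylysine into reactive aldehydes, from which the crosslinks of collagen and elastin form. PLOD2 acts on lysines of the collagen telopeptides, the step that steers crosslinks toward the stable pyridinoline type, and in fat these enzymes are known for their part in the stiff matrix of fibrotic depots. Several of the genes, among them P4ha1, P4ha2, Plod1, Plod2 and Lox, are known to be induced when oxygen is low.

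Total counts ran from 18949106 to 26237825 per library. Fam20c, the targeted gene, stood at 10.2 ± 1.29 and 7.30 ± 0.449 CPM (counts relative to library size; SD, n = 5 each) in Control and KO, a log2 fold change of -0.49 (adjusted p = 0.0137, edgeR quasi-likelihood test with Benjamini-Hochberg). Libraries Control 4 and KO 1 stood apart from the other 8 on the first principal component, at 21.7 and 24.2, while the others lay between -14.8 and 8.59; this component held 23.5% of the variance. Fold changes of the enzymes are therefore given with and without them. Adipocyte markers were present in every library, with a summed level of 27956 to 28854 CPM in Control and 29313 to 31424 CPM in KO over 8 genes.

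Of the 10 enzymes, 1 was lower in KO past the adjusted limit of 0.05, and 0 were higher, by edgeR's quasi-likelihood test. Over all genes tested, 1.86% were lower and 0.308% were higher. Plod2 was the gene that fell, and the other 9 had unadjusted p-values above 0.05. The median log2 fold change of the 10 was -0.06, with 7 of 10 negative, against a median of -0.00085 and 50.3% negative over all genes tested. The libraries of the groups did not overlap for 1 of the 10 (Plod2), and for 3.97% of all genes tested in either direction. The count was 1 without Control 4 and KO 1 too. The plot of CPM by library shows all 10 genes.

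**Figure D1:**
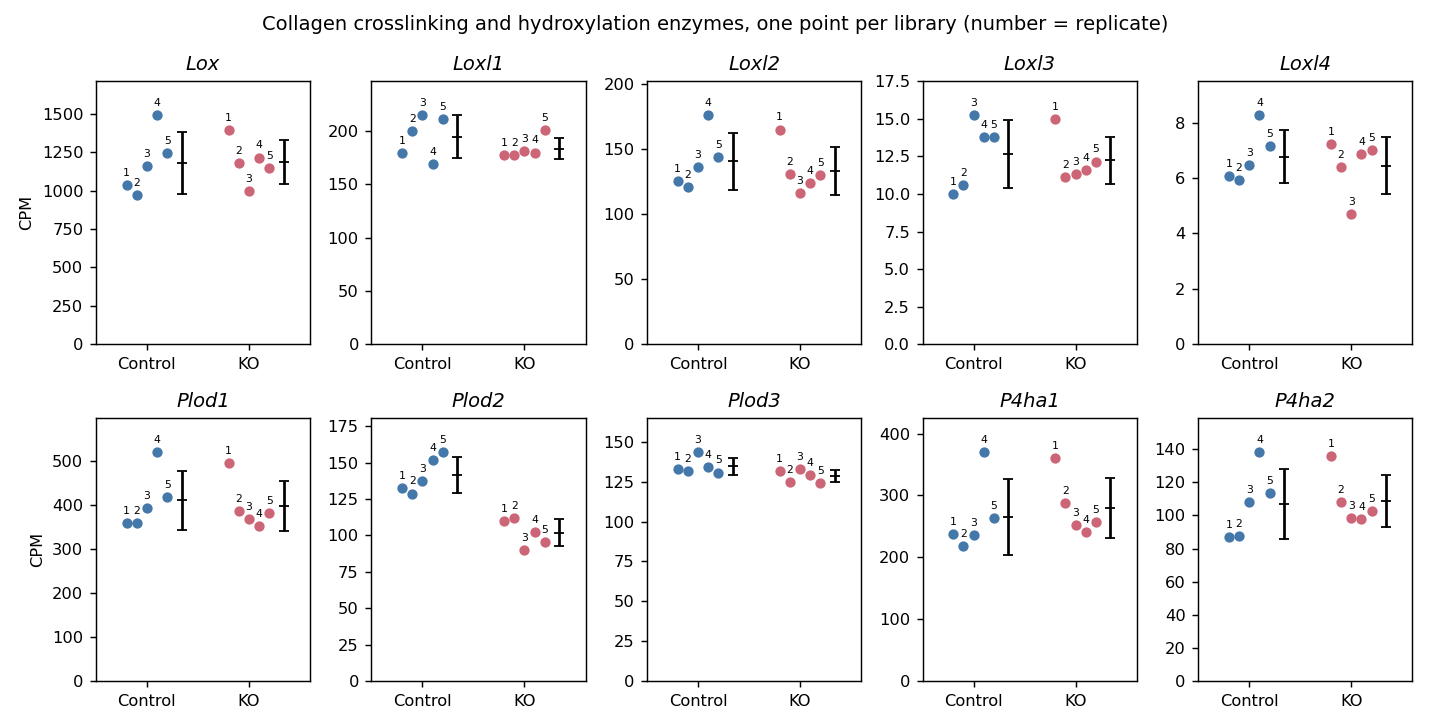
CPM (y axis, linear and from 0, its own scale for each gene) of the 10 enzymes in each library, with Control in blue and KO in red, the replicate number beside each point, and the mean and SD of 5 libraries as black bars. The 5 KO points of Plod2 (90.3 to 112 CPM) lie below its 5 Control points (129 to 157 CPM), while the groups overlap for the other 9 genes.

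Plod2, whose product is the telopeptide lysyl hydroxylase, lies on the plus strand of chromosome 9 (chr9:92542223-92608428, GRCm38). Its level was 133, 129, 138, 152 and 157 CPM in Control 1 to 5 and 109.7, 112, 90.3, 102 and 95.6 CPM in KO 1 to 5. All 5 KO libraries lay below all 5 Control libraries, and the lowest Control value exceeded the highest KO value by more than the SD of either group. The means were 142 ± 12.3 and 102 ± 9.11 CPM (SD, n = 5 each), a log2 fold change of -0.48 (standard error 0.071, 95% interval -0.63 to -0.32, adjusted p = 0.00292, edgeR quasi-likelihood test with Benjamini-Hochberg). On the linear scale, this difference was -28.1%, with an interval of -35.4% to -20.0%. Plod2 ranked at position 84 by p-value among the 14270 genes. Without Control 4 and KO 1 its log2 fold change was -0.48 (adjusted p = 0.00332, edgeR quasi-likelihood test with Benjamini-Hochberg). These values rest on 1879 to 3723 counts of Plod2 per library.

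Markers of other cells moved alongside Plod2. Of 12 blood endothelial markers, 10 fell in KO, and their summed level was 144 to 177 CPM in Control and 58.5 to 87.8 CPM in KO, with no overlap. Pecam1, an adhesion molecule of endothelial junctions, went from 42.0 ± 4.71 to 17.98 ± 4.06 CPM (SD, n = 5 each). Of 8 progenitor and fibroblast markers, 3 fell (Pdgfra, Lum and Col1a1), and the summed level was 2780 to 3247 CPM in Control and 2390 to 2812 CPM in KO, with overlap. Col1a1 made up a large part of this sum, at 1406 ± 148 CPM in Control and 1078 ± 131 CPM in KO (SD, n = 5 each). It is itself a collagen gene, so the sum is not a measure apart from the collagen genes. No marker of the macrophage list (7 tested), the pericyte and smooth muscle list (7 tested of 8), the mesothelial list (2 tested of 4) or the adipocyte list (8 tested) passed the limit. Their summed levels were 1168 to 1848 against 1044 to 1760 CPM for macrophages, 176 to 232 against 142 to 193 CPM for pericytes and smooth muscle, and 23.8 to 30.3 against 16.9 to 35.7 CPM for mesothelium. All 7 pericyte and smooth muscle markers tested had negative log2 fold changes, with a median of -0.35, and 4 of them (Acta2, Tagln, Notch3 and Kcnj8) had an unadjusted p-value under 0.05; for Kcnj8 the groups did not overlap. The adipocyte sum was higher in each KO library than in each Control library, and 4 of its 8 genes were higher at an unadjusted p-value under 0.05. Most of this sum was Fabp4, at 20805 ± 357 CPM in Control and 22552 ± 945 CPM in KO (SD, n = 5 each). The groups overlapped for Fabp4 itself. No marker was at 0 in all libraries. The part of these cell types in the Plod2 difference was not tested, and in bulk RNA fewer cells of a type and less RNA per cell cannot be told apart.

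Plod1 and Plod3 encode the other lysyl hydroxylases. PLOD1 acts on lysines of the collagen helix, and PLOD3 also has glycosyltransferase activity on hydroxylysine. Plod1 (chr4:147909753-147936767, minus strand) had 358, 359, 394, 520 and 418 CPM in Control 1 to 5 and 495, 386, 368, 351 and 381 CPM in KO 1 to 5. Control 4 and KO 1 were the highest library of their group, and the groups overlapped. The log2 fold change of Plod1 was -0.05 (95% interval -0.29 to 0.19, adjusted p = 0.936, edgeR quasi-likelihood test with Benjamini-Hochberg). It was -0.04 without Control 4 and KO 1, with a standard error of 0.056 in place of 0.11. Plod3 (chr5:136987019-136996648, plus strand) had 133, 131, 144, 134 and 131 CPM in Control 1 to 5 and 132, 125, 133, 129 and 124 CPM in KO 1 to 5. It was the steadiest of the 10 enzymes, with a coefficient of variation of 3.86% in Control and 3.13% in KO and a ratio of 1.16 between its highest and lowest library. The log2 fold change of Plod3 was -0.07 (95% interval -0.15 to 0.02, adjusted p = 0.566, edgeR quasi-likelihood test with Benjamini-Hochberg). On the linear scale its interval ran from -9.99% to 1.27%, and did not meet that of Plod2. The log2 fold change of Plod3 was -0.07 without Control 4 and KO 1 as well. The difference between the log2 fold changes of Plod2 and of its paralogs was not tested.

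Lox, which encodes the founding lysyl oxidase, a proenzyme cut by BMP1 outside the cell, was the most abundant of the 10 enzymes per kb of exon. It lies on the minus strand of chromosome 18. Lox had 1035, 972, 1159, 1491 and 1248 CPM in Control 1 to 5 and 1394, 1179.7, 998, 1217 and 1149 CPM in KO 1 to 5. The range of KO lay within that of Control. The means were 1181 ± 204 and 1188 ± 142 CPM (SD, n = 5 each), and the log2 fold change was 0.01 (95% interval -0.23 to 0.25, adjusted p = 0.992, edgeR quasi-likelihood test with Benjamini-Hochberg). On the linear scale the interval of the Lox difference ran from -14.9% to 18.9%, so that a difference of -28.1%, the one fitted for Plod2, lay outside it. Without Control 4 and KO 1 the log2 fold change of Lox was 0.04 (standard error 0.080 in place of 0.11).

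The 4 other lysyl oxidases did not pass the limit either. Loxl1, whose product is known for elastic fibres, had 179, 200.3, 215, 169 and 211 CPM in Control and 178, 178, 181, 180.0 and 201 CPM in KO (chr9:58287738-58313186, minus strand). Loxl2, known for type IV collagen of basement membranes, had 125, 121, 136, 176 and 144 CPM in Control and 165, 131, 116, 124 and 130.04 CPM in KO (chr14:69609068-69695834, plus strand). For Loxl1 the KO values lay within the Control range; for Loxl2 the highest library of each group was Control 4 or KO 1. Loxl3 (chr6:83034173-83052562, plus strand) ran from 10.0 to 15.2 CPM in Control and from 11.2 to 15.0 CPM in KO. Loxl4 (chr19:42593982-42612813, minus strand) ran from 5.92 to 8.27 CPM in Control and from 4.71 to 7.24 CPM in KO, on 108 to 171 counts per library. Their log2 fold changes were -0.09 for Loxl1 (95% interval -0.23 to 0.06), -0.08 for Loxl2 (-0.31 to 0.16), -0.05 for Loxl3 (-0.32 to 0.21) and -0.07 for Loxl4 (-0.35 to 0.21), with adjusted p between 0.699 and 0.937 by edgeR quasi-likelihood test with Benjamini-Hochberg. The intervals of all 4 exclude a fall of the size fitted for Plod2, and those of Loxl3 and Loxl4 are the widest. Without Control 4 and KO 1 the log2 fold changes were -0.12 for Loxl1, -0.07 for Loxl2, -0.10 for Loxl3 and -0.04 for Loxl4, and none passed the limit.

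P4ha1 and P4ha2 encode the catalytic alpha subunits of prolyl 4-hydroxylase. P4ha1 (chr10:59323296-59373304, plus strand) had 237, 219, 237, 370.0 and 263 CPM in Control 1 to 5 and 361, 288, 253, 241 and 256 CPM in KO 1 to 5. P4ha2 (chr11:54100095-54131665, plus strand) had 86.9, 87.6, 108, 138 and 113 CPM in Control 1 to 5 and 136, 108, 98.4, 97.9 and 103 CPM in KO 1 to 5. In both genes Control 4 and KO 1 were the highest library of their group, and the groups overlapped. The log2 fold change was 0.08 for P4ha1 (95% interval -0.23 to 0.39, adjusted p = 0.916) and 0.02 for P4ha2 (-0.25 to 0.30, adjusted p = 0.978; both edgeR quasi-likelihood test with Benjamini-Hochberg). P4ha1 had the largest coefficient of variation of the 10 enzymes, 22.9% in Control and 17.4% in KO. Without Control 4 and KO 1 the log2 fold change of P4ha1 was 0.12 (standard error 0.064 in place of 0.14; adjusted p = 0.396, edgeR quasi-likelihood test with Benjamini-Hochberg), and that of P4ha2 was 0.04 (standard error 0.083 in place of 0.13).

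Levels of different genes were compared as CPM per kb of summed exon length, in Control. Lox stood at 247 ± 42.7 CPM per kb, apart from all others and above P4ha1 at 64.4 ± 14.8, Plod1 at 60.6 ± 9.82 and Loxl1 at 59.1 ± 6.06 (SD, n = 5 each). These 3 did not differ beyond their spread, and with the length of the longest transcript in place of the summed exons Plod1 stood above the other two, at 99.98 CPM per kb. Plod3 at 29.8 ± 1.151, Plod2 at 26.3 ± 2.28 and Loxl2 at 25.99 ± 4.02 CPM per kb followed. P4ha2 had 17.1 ± 3.40, Loxl3 had 2.76 ± 0.490 and Loxl4 had 1.61 ± 0.227 CPM per kb. The ranges over libraries of neighbours in this order met from P4ha1 to Loxl1 and again from Plod3 to Loxl2, while those of Loxl1 and Plod3, Loxl2 and P4ha2, P4ha2 and Loxl3, and Loxl3 and Loxl4 did not meet. With longest transcripts P4ha2 stood at 34.9 CPM per kb, above Loxl2 at 26.4. The lysyl oxidase family held both the highest and the lowest of the 10 levels.

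As a share of the family's summed level per kb, Plod2 made up 22.6 ± 1.26% of the lysyl hydroxylases in Control and 17.9 ± 1.41% in KO (SD, n = 5 each). The shares ran from 20.9% to 24.3% in Control and from 16.6% to 19.7% in KO and did not overlap. Plod1 made up 51.7 ± 3.09% and 55.1 ± 2.79%, and Plod3 made up 25.7 ± 2.51% and 27.0 ± 2.20%, with overlap for both. With longest transcripts the share of Plod2 was 21.6% in Control and 17.0% in KO. Lox made up 73.1 ± 2.89% of the lysyl oxidases in Control and 74.5 ± 1.83% in KO, and P4ha1 made up 73.8 ± 2.39% and 76.2 ± 0.931% of the prolyl 4-hydroxylase alpha subunits, with overlap in each case. With longest transcripts the share of Lox was 73.1% in Control and 74.4% in KO. That of P4ha1 was lower than with summed exons, at 60.7% and 63.0%, and P4ha2 then took 32.4% in Control. Shares were not tested, since they are built from the same counts as the fold changes.

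**Figure D2:**
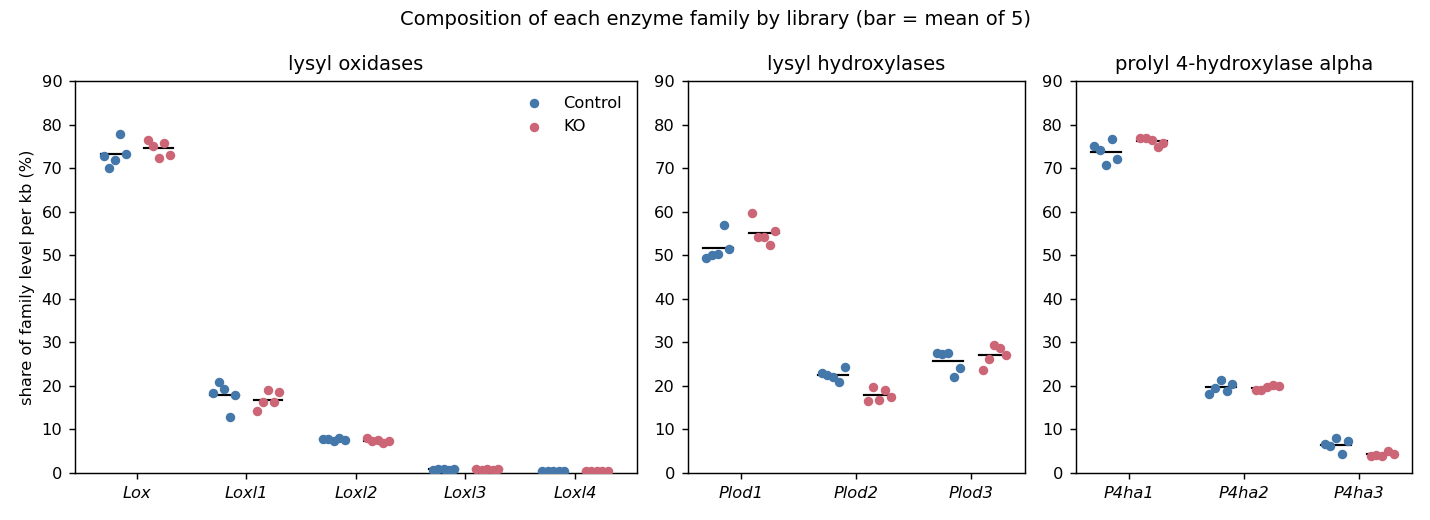
Share of each gene in the level of its family per kb (y axis, percent, from 0) in each library, with Control in blue, KO in red and a bar at the mean of 5, for the lysyl oxidases, the lysyl hydroxylases and the prolyl 4-hydroxylase alpha subunits. The Plod2 points of KO (16.6% to 19.7%) lie below those of Control (20.9% to 24.3%), and Lox takes 70.1% to 77.8% of its family over all libraries.

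Around these enzymes, 27 other genes of collagen maturation were followed, of which 24 were tested; Colgalt2, Tll1 and Tll2 were too low. In KO, 5 fell and 0 rose past the limit, 19 of 24 log2 fold changes were negative, and their median was -0.15, against 1.86% lower, 0.308% higher and a median of -0.00085 over all genes tested. At an unadjusted p-value under 0.05, 13 were lower and 1 was higher. The count of 5 was not stable: it ran from 1 to 5 when single libraries were left out, and 1 of the 5 genes, Pcolce2, was called in all 10 of these fits. It was 6 without Control 4 and KO 1, with Serpinh1 added. The endothelial and progenitor values given above moved with these genes too, and their part in the differences was not tested.

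Among partners of the hydroxylases and the prolyl 3-hydroxylases, 1 of 8 fell. P4ha3, the remaining alpha subunit gene, gave 16.0, 13.8, 20.4, 16.0 and 20.4 CPM in Control and 14.0, 11.5, 9.69, 12.6 and 11.1 CPM in KO. Control 2 lay just below KO 1, so the groups overlapped. Its log2 fold change was -0.55 (95% interval -0.82 to -0.29, adjusted p = 0.0365, edgeR quasi-likelihood test with Benjamini-Hochberg), and it kept the call in 3 of 10 fits that left out a library. All 8 log2 fold changes of this group were negative. Crtap, a partner in prolyl 3-hydroxylation, and P3h3, a gene of the prolyl 3-hydroxylase family, had log2 fold changes of -0.21 and -0.25 with no overlap of the groups, at adjusted p of 0.0864 and 0.119 by edgeR quasi-likelihood test with Benjamini-Hochberg. P4hb, the shared beta subunit, went from 829.5 ± 50.01 to 774 ± 31.0 CPM (SD, n = 5 each), with a log2 fold change of -0.10 (95% interval -0.21 to 0.01).

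Of the chaperone and glycosylation genes, 2 of 6 tested fell. Fkbp10, whose product is a collagen chaperone that works with PLOD2 at the telopeptides, had 55.3, 53.7, 64.8, 51.0 and 59.6 CPM in Control and 46.2, 45.9, 45.6, 50.5 and 43.5 CPM in KO. Every KO library lay below every Control library, though KO 4 was within 1 CPM of Control 4. Its log2 fold change was -0.29 (95% interval -0.44 to -0.15, adjusted p = 0.0326, edgeR quasi-likelihood test with Benjamini-Hochberg), and the call held in 3 of 10 fits that left out a library. Fkbp14, a related prolyl isomerase, went from 33.3 ± 2.22 to 26.9 ± 2.31 CPM (SD, n = 5 each), a log2 fold change of -0.31 (adjusted p = 0.0327, edgeR quasi-likelihood test with Benjamini-Hochberg; called in 2 of 10 such fits). Colgalt1, which adds galactose to hydroxylysine, had a log2 fold change of -0.14 (adjusted p = 0.162, edgeR quasi-likelihood test with Benjamini-Hochberg) with no overlap of the groups.

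Of the procollagen proteases and enhancers, 2 of 6 tested fell. Pcolce2, an enhancer of procollagen processing, had 4.35, 4.54, 4.70, 4.30 and 5.66 CPM in Control and 2.68, 3.29, 2.62, 3.44 and 2.85 CPM in KO. All KO values lay below all Control values. Its log2 fold change was -0.66 (95% interval -0.92 to -0.41, adjusted p = 0.0100, edgeR quasi-likelihood test with Benjamini-Hochberg). Pcolce, its more abundant relative, went from 371 ± 42.3 to 299.6 ± 14.6 CPM (SD, n = 5 each), a log2 fold change of -0.31 (adjusted p = 0.0396, edgeR quasi-likelihood test with Benjamini-Hochberg; called in 2 of 10 fits that left out a library). Bmp1, the protease that removes the procollagen C-propeptide and activates LOX, had a log2 fold change of -0.27 (95% interval -0.45 to -0.09, adjusted p = 0.146, edgeR quasi-likelihood test with Benjamini-Hochberg). Among the 4 other matrix crosslinking enzymes 0 passed the limit by edgeR's quasi-likelihood test, with 1 lower (Pxdn) and 1 higher (Tgm2) at an unadjusted p-value under 0.05, while DESeq2 and limma voom each called Tgm2 higher. Tgm2, a transglutaminase, stood at 823 ± 20.4 and 908 ± 25.2 CPM in the 2 groups (SD, n = 5 each), with each KO library above each Control library, and a log2 fold change of 0.14 (95% interval 0.06 to 0.22, adjusted p = 0.0745, edgeR quasi-likelihood test with Benjamini-Hochberg). Pxdn, the peroxidasin that crosslinks type IV collagen, had a log2 fold change of -0.23 (adjusted p = 0.190, edgeR quasi-likelihood test with Benjamini-Hochberg).

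**Figure D3:**
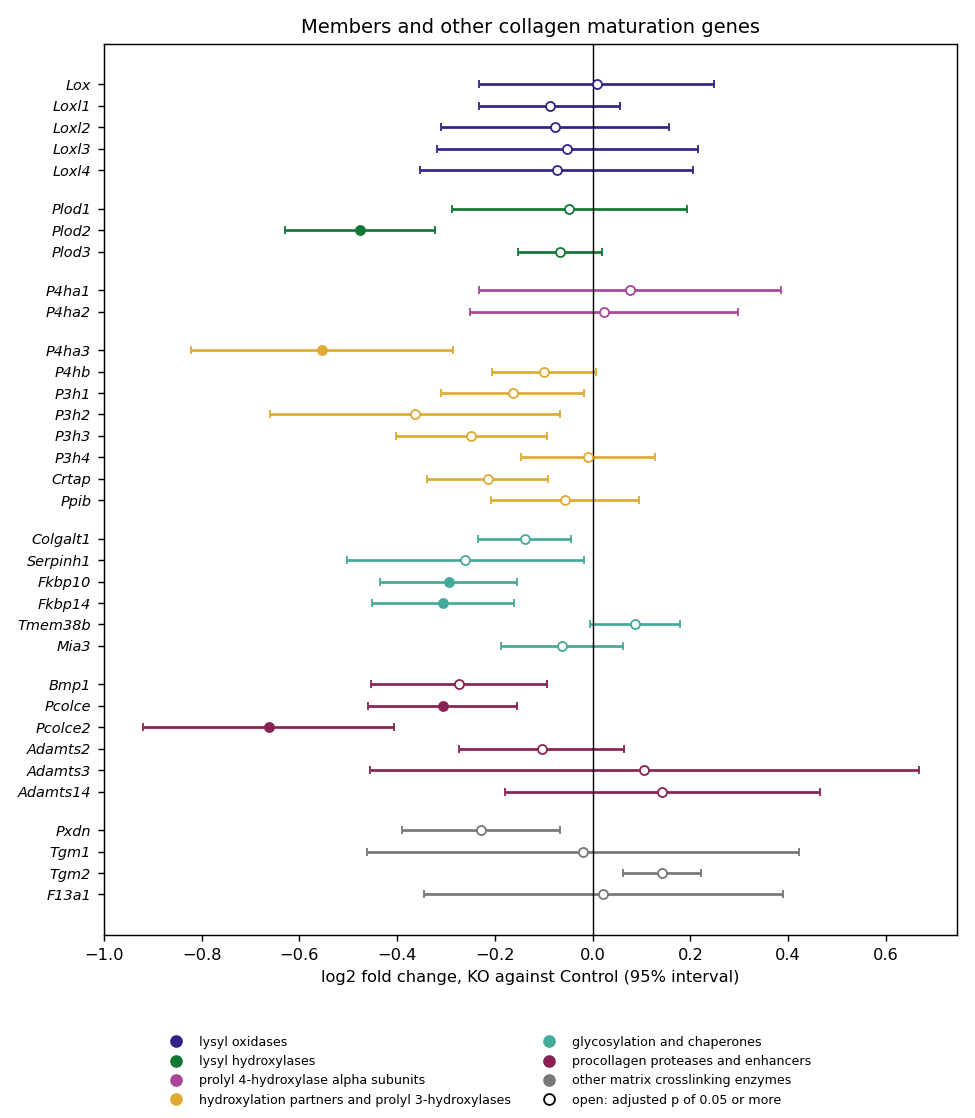
Log2 fold change of KO against Control (x axis) with its 95% interval for the 10 enzymes and the 24 tested genes of collagen maturation, coloured by role; filled circles passed an adjusted p-value of 0.05 in edgeR quasi-likelihood test with Benjamini-Hochberg. Plod2 is the filled circle among the 10 enzymes, and the intervals of the other 9 include 0.

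Among substrates and partners of the lysyl oxidases, a list of collagens and other matrix proteins, 5 of 14 genes tested fell and 0 rose. Over all genes tested, 1.86% fell and 0.308% rose. All 14 log2 fold changes were negative, with a median of -0.28, and 6 fell without Control 4 and KO 1. The fibrillar collagen genes Col1a1, Col1a2, Col3a1 and Col5a1 had log2 fold changes of -0.38, -0.38, -0.47 and -0.32, at adjusted p of 0.0473, 0.0473, 0.0182 and 0.00402 by edgeR quasi-likelihood test with Benjamini-Hochberg. Col5a2, the other fibrillar collagen gene on the list, had -0.17 with overlapping groups (adjusted p = 0.254, edgeR quasi-likelihood test with Benjamini-Hochberg). Postn, a matricellular protein that binds collagen and BMP1, had a log2 fold change of -0.31 (adjusted p = 0.0396, edgeR quasi-likelihood test with Benjamini-Hochberg). The groups also overlapped for Col1a1, Col1a2 and Postn, while those of Col3a1 and Col5a1 did not. Calls of these substrate genes with single libraries left out are not given here. Col1a1 is also on the list of 8 progenitor and fibroblast markers, of which 3 fell (Col1a1, Pdgfra and Lum). Others on that list, Dcn, Thy1 and Ly6a, had log2 fold changes of -0.04, 0.03 and -0.06. Of the 12 blood endothelial markers 10 fell, and their summed level was 144 to 177 CPM in Control and 58.5 to 87.8 CPM in KO. The part of these cell types in the substrate differences was not tested. Beside these, Plod2 fell by 0.48 on the log2 scale while Lox stood at 0.01; the difference between substrate and enzyme changes was not tested. Of the cofactor genes, 0 of 4 tested passed the limit: the copper genes Atp7a, Slc31a1 and Atox1 had log2 fold changes of 0.11, -0.01 and 0.04, and the ascorbate transporter Slc23a2 had -0.14, with unadjusted p-values of all 4 above 0.05, while Slc23a1 was too low to test.

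Most of the enzymes varied between libraries of the same group in a shared way. A list of 12 hypoxia-inducible genes, of which 11 were found by symbol and tested, was used as a reference. Its mean was 7.29, 7.24, 7.35, 8.29 and 7.47 log2 CPM in Control 1 to 5 and 8.31, 7.74, 7.56, 7.44 and 7.63 log2 CPM in KO 1 to 5. Control 4 and KO 1, the libraries that stood apart, were thus the highest of their groups. Between groups, 0 of the 11 passed the limit by edgeR's quasi-likelihood test and 0 had an unadjusted p-value under 0.05, and 10 of 11 log2 fold changes were positive, with a median of 0.16.

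Deviations of each enzyme from its group mean were set against those of this list over the 10 libraries, as a description. P4ha1 followed it most closely (Pearson r = 0.99, Spearman rho = 0.95), ahead of Plod1 (r = 0.98, rho = 0.93), Loxl2 (r = 0.95, rho = 0.90) and P4ha2 (r = 0.92, rho = 0.89). Without Control 4 and KO 1 the r values over 8 libraries were 0.95, 0.89, 0.77 and 0.77. The likeness of these 4 genes to the list therefore did not rest on those libraries alone. Lox had r = 0.85 and rho = 0.70, and 0.49 without the 2 libraries; Plod2 had r = 0.60 and rho = 0.65, and 0.68 without them. Loxl3 (r = 0.58, rho = 0.60) and Loxl4 (r = 0.65, rho = 0.64) were intermediate and had 0.41 and 0.30 without the 2 libraries. Plod3 (r = 0.08, rho = -0.14) and Loxl1 (r = -0.54, rho = -0.30) did not follow the list, and without the 2 libraries their r was -0.29 and 0.33. All points share library and normalization, and the deviations come from 2 groups of 5.

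**Figure D4:**
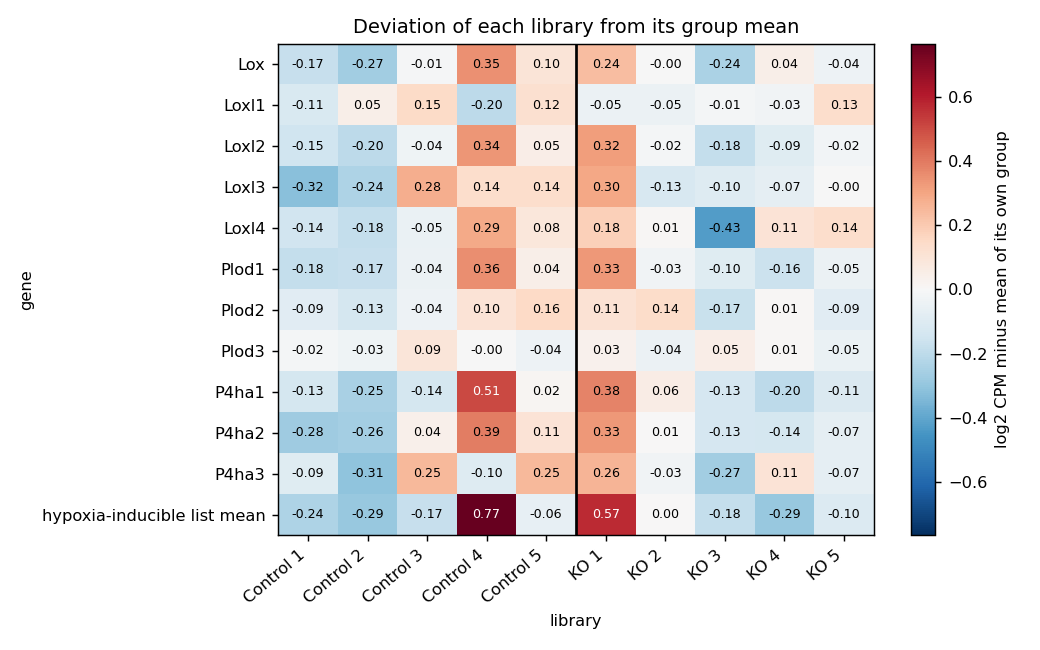
Deviation of log2 CPM from the mean of the library's own group (colour and printed value) for the 10 enzymes, P4ha3 and the mean of the hypoxia-inducible list (rows) in the 10 libraries (columns; the black line parts Control from KO). Control 4 and KO 1 are the red columns of the list (0.77 and 0.57), and P4ha1 stands at 0.51 and 0.38 there, while the deviation of Plod3 farthest from 0 is 0.094, in Control 3.

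The genes most like an enzyme were sought by the same deviations among all genes tested. For P4ha1 they were Pdk1 (r = 0.997), a kinase that holds back pyruvate dehydrogenase, Egln3 (r = 0.992), an oxygen-sensing prolyl hydroxylase, and Pfkl (r = 0.991), a phosphofructokinase. The first pair belong to the hypoxia-inducible list. For Plod1 they were Gnb4 (r = 0.998), Apln (r = 0.993) and Kcne4 (r = 0.989), and for Lox they were Nedd4l (r = 0.990), Medag (r = 0.983) and Klf6 (r = 0.982). For Plod2 they were Pde7b (r = 0.940), Blm (r = 0.928) and Cxcl1 (r = 0.925), with Spearman rho of 0.927, 0.879 and 0.903. Each r is over 10 libraries and is among the 3 highest of the 14270 genes tested, and without Control 4 and KO 1 the r of these 12 genes ran from 0.919 to 0.984.

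Promoters are shown for 3 of the enzymes, because the first pair followed the hypoxia-inducible list closely and the third did not. RefSeq promoters on GRCm38.p6 were matched by symbol for 5 of the 10 enzymes (Loxl4, Plod1, Plod3, P4ha1 and P4ha2). Lox was left out of this search, and Loxl1, Loxl2, Loxl3 and Plod2 were not matched. The 250 bases before each start site were read 5′ to 3′ on the gene's strand. Capitals mark the core of the hypoxia response element, searched as ACGTG or GCGTG on both strands (CACGT and CACGC on the strand shown); the letters ACGTG also occur in the E-box CACGTG, and GCGTG in the binding element of the aryl hydrocarbon receptor. The windows are chr10:59323046-59323295 (plus strand) for P4ha1, chr4:147936777-147937026 (minus strand) for Plod1 and chr5:136986769-136987018 (plus strand) for Plod3.
P4ha1 promoter: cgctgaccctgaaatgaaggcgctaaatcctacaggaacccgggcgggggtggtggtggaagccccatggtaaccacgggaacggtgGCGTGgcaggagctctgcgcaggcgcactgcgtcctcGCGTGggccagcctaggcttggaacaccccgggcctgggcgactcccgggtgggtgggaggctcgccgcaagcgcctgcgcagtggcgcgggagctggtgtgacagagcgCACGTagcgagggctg
Plod1 promoter: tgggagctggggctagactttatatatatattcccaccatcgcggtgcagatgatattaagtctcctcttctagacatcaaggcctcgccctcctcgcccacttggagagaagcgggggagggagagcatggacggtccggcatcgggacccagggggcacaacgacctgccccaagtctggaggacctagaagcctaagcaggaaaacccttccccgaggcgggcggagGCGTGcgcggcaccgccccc
Plod3 promoter: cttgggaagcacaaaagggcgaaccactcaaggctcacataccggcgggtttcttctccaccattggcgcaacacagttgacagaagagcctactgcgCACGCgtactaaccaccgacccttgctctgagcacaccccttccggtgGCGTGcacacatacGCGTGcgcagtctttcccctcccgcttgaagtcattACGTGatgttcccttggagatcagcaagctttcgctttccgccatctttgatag
The P4ha1 window holds ACGTG at 1 place and GCGTG at 2, that of Plod1 holds GCGTG at 1, and that of Plod3 holds ACGTG at 1 and GCGTG at 3. The P4ha2 window holds ACGTG at 1 place and GCGTG at 2, and the Loxl4 window holds GCGTG at 1. Over all 32851 RefSeq promoter windows of this length, 16.6% hold ACGTG, 28.2% hold GCGTG and 38.6% hold either. Plod3, whose level followed the list least closely of these 5, has the most matches.

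Some of the fragments counted on these enzymes may belong to neighbours. On GRCm38, exons of Plod2 overlap the opposite-strand gene Gm38391 over 346 bases, those of Plod3 overlap Znhit1 over 529, those of Loxl3 overlap Htra2 over 535, and those of Loxl2 overlap Gm27177 over 301 bases, all on opposite strands, and Lox overlaps AC161119.1 over 30 bases. The strand setting of the counting is not given in the sources used here, so reads from such pairs cannot be told apart. Loxl1, Loxl4, Plod1, P4ha1 and P4ha2 share no exon with another gene of that annotation.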

How the data were processed

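RNA-seq of 5 Control and 5 KO libraries was analysed. The authors prepared libraries with SMARTer v4 and Nextera XT kits, mapped reads with STAR to GRCm38.p6, and deposited raw counts per gene from featureCounts, with no normalization. In R 4.3.3, edgeR 4.0.16 removed low genes (filterByExpr, minimum count 10), scaled by TMM and tested KO against Control by the quasi-likelihood test with Benjamini-Hochberg adjustment over 14270 genes, at a limit of 0.05. CPM used TMM library sizes, and log2 CPM a prior count of 2. Standard errors were derived from the log2 fold change and the F statistic. Total counts of at least 18949106 leave genes of low CPM with the largest counting error.

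The table holds no positions. Gene positions and exon lengths are those of GENCODE M21, matched by identifier for 52125 of 56748 genes, nearly all with another version number, so the counted gene models may differ. The members, gene lists and tests were chosen with earlier results of these data known. Named were all members, Fam20c, list genes that passed or had the smallest p-values in their group, up to 5 substrates, the cofactor genes, and the 3 genes most like Plod2 and the most abundant member of each family per kb; P4hb, Serpinh1, Col5a2 and the marker genes come from the same lists and were named after their values were seen. Alternatives were DESeq2 1.42.0, limma voom (3.58.1) with sample quality weights, other size factors and filters, a replicate block, other gene lengths and each library left out. Leaving out Control 4 and KO 1 together was added after the data were seen. The script was tested on simulated counts.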

Additional observations from a re-analysis of the deposited data

Results flagged for a closer look

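Of 20 groups of 5 libraries (10 enzymes in 2 groups), 5 had a highest library whose gap to the next, divided by the group's range, was above Dixon's critical value of 0.71; chance gives about 1 in 20 groups, or 1 here. KO 1 was far from the rest for Plod1 (495 CPM against 351 to 386, ratio 0.76), P4ha2 (136 CPM against 97.9 to 108, ratio 0.73) and Loxl3 (15.0 CPM against 11.2 to 12.2, ratio 0.736). KO 5 was far from the rest for Loxl1 (201 CPM against 178 to 181, ratio 0.834), and Control 3 for Plod3 (144 CPM against 131 to 134, ratio 0.721). The 20 groups come from the same libraries, and several enzymes varied together, so these flags are not independent of each other. For none of these 5 genes did the groups differ past the limit by edgeR's quasi-likelihood test.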

How the results depend on the processing

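The number of the 10 enzymes past the limit was 1 under all 18 alternatives, and Plod2 was that gene in each, with a log2 fold change between -0.51 and -0.43 and an adjusted p of at most 0.0194 (the replicate block). The number of other collagen maturation genes past the limit was 5; it was 7 with DESeq2, 6 with limma voom, 1 with the replicate number as a block, and 1 to 5 when single libraries were left out (1 or 2 without Control 1, 3 or 5 or without any 1 of the KO libraries). Fits with libraries left out rest on fewer samples, and the count was 5 without Control 2 or Control 4. It was 6 without Control 4 and KO 1 together. The cause of the lower counts, with libraries left out or with the block, was not tested. Pcolce2 was called in all 18. Same-numbered libraries did not deviate together (correlations of -0.17, 0.09, 0.26, -0.25 and 0.03, with 1 library of 5 closest to its own number). No label states whether cultures of the same number were prepared together, and these correlations cannot decide it.

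Leaving out single libraries turned the sign of 7 log2 fold changes that had not passed the limit: their ranges were -0.0544 to 0.109 for Lox, -0.163 to 0.0196 for Loxl2, -0.131 to 0.0245 for Loxl3, -0.121 to 0.0252 for Loxl4, -0.138 to 0.0553 for Plod1, -0.0289 to 0.2296 for P4ha1 and -0.0663 to 0.136 for P4ha2. With longest transcripts the Control levels were 99.98 (Plod1), 38.7 (Plod2), 41.1 (Plod3) and 34.9 (P4ha2) CPM per kb, against 60.6, 26.3, 29.8 and 17.1 with summed exons. Loxl4, at 108 to 171 counts per library, had the largest counting error of the 10 enzymes.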
